A study of Mus musculus with 6 samples.

Results

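The genes described are 10 genes of late neutrophil granules and of calprotectin, Camp, Ngp, Ltf, Lcn2, S100a8, S100a9, Mmp8, Mmp9, Cd177 and Chil3, among 18193 genes measured on 6 expression arrays. The list was chosen by name with earlier log2 differences between these same arrays in view, so levels and changes are given as a description. Each was represented by the probe set, the group of array probes that reads 1 transcript, with the highest mean over all 6 arrays among the probe sets that name it alone. All 10 were measured. Only Mmp9 had more than 1 such probe set, with means of 6.20 and 6.04 on the log2 scale, and the brighter was used.

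The RNA came from flow-sorted mouse bone marrow cells that carried Sca1 and cKit and lacked lineage markers and Flt3, a gate for stem and early progenitor cells. All mice had a C57BL/6 background and 2 Raptor alleles (gene Rptor) with loxP sites around exon 6. The Raptor mutant group (3 arrays) also carried the MxCre transgene, which the wild type group (3 arrays) lacked. Wild type and mutant mice alike were injected 3 times within 5 days with pIpC (polyinosinic-polycytidylic acid, which triggers interferon), each dose being 15 µg per g of body weight. Sorting followed 5 weeks later. The Mx promoter responds to interferon and is not restricted to blood cells. Raptor is the defining subunit of the growth-promoting kinase complex mTORC1. The labels give neither age nor sex. Nor do they say whether the RNA on an array came from 1 mouse or from several, so the p-values reflect differences among arrays that could be technical.

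Neutrophils make their granules in waves while they mature. Promyelocytes fill the primary granules with myeloperoxidase and serine proteases. Myelocytes and metamyelocytes then fill the secondary granules with lactoferrin, lipocalin 2 and cathelicidin, and later cells make gelatinase granules. Calprotectin, the pair of calcium-binding proteins S100A8 and S100A9, is a major cytosolic protein of neutrophils and monocytes. These late genes depend on transcription factors of the C/EBP family, above all C/EBP epsilon, and ordinarily mark cells far downstream of stem cells.

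The promoters of the 7 genes whose mutant values all lay below their wild type values are shown because these genes differ together between the groups. Each line gives the 200 bases before the annotated start of transcription, 5′ to 3′ on the gene's own strand, from RefSeq (GRCm38.p6). Capitals mark matches on either strand to TTGCNNAA and TTNNGNAA (forms of the C/EBP motif), GGAAGT (an ETS core), GAGGAA (a PU.1 core) and TATAAA (the TATA box).
Camp (chr9:109849457-109849656, minus strand): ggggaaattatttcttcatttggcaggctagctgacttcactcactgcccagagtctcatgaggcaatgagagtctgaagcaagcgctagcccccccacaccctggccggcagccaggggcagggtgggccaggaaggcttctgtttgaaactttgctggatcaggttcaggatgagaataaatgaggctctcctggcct
Ngp (chr9:110419608-110419807, plus strand): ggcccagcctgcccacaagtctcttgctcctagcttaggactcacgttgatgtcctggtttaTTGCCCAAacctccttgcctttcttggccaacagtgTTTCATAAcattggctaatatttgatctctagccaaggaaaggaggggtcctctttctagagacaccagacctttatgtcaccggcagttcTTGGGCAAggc
Ltf (chr9:111019092-111019291, plus strand): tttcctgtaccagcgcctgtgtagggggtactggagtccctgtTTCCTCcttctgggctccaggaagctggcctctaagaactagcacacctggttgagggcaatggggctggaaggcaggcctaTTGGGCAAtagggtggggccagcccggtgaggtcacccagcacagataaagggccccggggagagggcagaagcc
Lcn2 (chr2:32387740-32387939, minus strand): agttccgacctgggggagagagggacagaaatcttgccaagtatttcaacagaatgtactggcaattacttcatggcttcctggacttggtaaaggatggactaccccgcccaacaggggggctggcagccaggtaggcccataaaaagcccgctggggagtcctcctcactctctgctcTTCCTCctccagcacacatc
S100a8 (chr3:90668871-90669070, plus strand): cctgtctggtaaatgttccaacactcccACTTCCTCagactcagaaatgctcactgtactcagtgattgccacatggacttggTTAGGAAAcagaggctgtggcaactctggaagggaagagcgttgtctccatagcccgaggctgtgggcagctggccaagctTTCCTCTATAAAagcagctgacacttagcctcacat
S100a9 (chr3:90695722-90695921, minus strand): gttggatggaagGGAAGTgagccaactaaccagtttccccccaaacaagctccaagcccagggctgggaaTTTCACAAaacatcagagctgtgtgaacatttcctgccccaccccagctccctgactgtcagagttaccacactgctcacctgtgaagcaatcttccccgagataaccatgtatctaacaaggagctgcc
Chil3 (chr3:106167565-106167764, minus strand): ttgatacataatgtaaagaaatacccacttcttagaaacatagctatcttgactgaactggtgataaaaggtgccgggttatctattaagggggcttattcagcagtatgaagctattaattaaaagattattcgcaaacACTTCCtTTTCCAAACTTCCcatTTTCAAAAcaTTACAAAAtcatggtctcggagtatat

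Promoters of 9 of the 10 genes were in the table searched. Of these, 7 held TTNNGNAA, a sequence found in 30% of all 32851 promoter windows of the same length, and 3 (Ngp, Ltf and Mmp8) held the tighter TTGCNNAA, found in 7.47%. Ngp and Ltf shared the letters TTGGGCAA, at bases 11 to 4 before the start in Ngp and 75 to 68 in Ltf. GGAAGT was present in S100a8, S100a9, Cd177 and Chil3, against 16.7% of all windows, and Chil3 held it at 2 places. GAGGAA was present in Ltf, Lcn2, S100a8 and Cd177, against 19% of windows, and TATAAA in S100a8 and Cd177, against 9.96%. The Camp window held none of these letter strings. TTGCNNAA and TTNNGNAA overlap at the same bases in Ngp and Ltf, as GGAAGT and GAGGAA do in S100a8 at bases 172 to 165. The motifs were chosen with the gene list known, and a match describes letters alone. By gene order in RefSeq, S100a8 and S100a9 are direct neighbours on chromosome 3, as are Chil3 and its close relative Chil4. Camp, Ngp and Ltf lie on chromosome 9, with 18 annotated genes between Camp and Ngp and 25 between Ngp and Ltf.

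Arrays stood apart in ways that the labels do not name. Across probe sets, wild type array 1 had r of 0.977 to 0.984 with the 3 mutant arrays but 0.962 and 0.967 with the other wild type arrays. Y-linked Kdm5d had a log2 intensity of 10.55 on wild type array 2 and 9.53 on array 3, whereas the other 4 arrays read 3.60 to 3.88. Y-linked signal was thus confined to wild type arrays and is partly confounded with genotype in the fit over all 6 arrays. Among arrays without Y-linked signal the mutants can therefore be set against wild type array 1 alone, and those values are given beside each gene. The brightest Rptor probe set had 8.57, 8.17 and 7.59 on the wild type arrays and 8.68, 7.99 and 8.33 on mutant arrays. It was not analysed where that probe set lies relative to exon 6, so it does not check the deletion. Array medians were 6.85 to 6.94 and lower quartiles 5.15 to 5.37 on the log2 scale. Of the stem and progenitor markers, Kit stood at 10.71 to 11.17 over the 6 arrays. RNA of Flt3, the receptor absent from the surface of the sorted cells, stood at 9.51 to 10.79.

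All 10 genes had a lower mean in mutant than in wild type arrays, and their median log2 change was -2.37, against -0.07 over all 18193 genes. A total of 8 of the 10 had a log2 change of -1 or below, a size reached by 0.962% of all genes. In 7 of the 10 the 3 mutant values all lay below the 3 wild type values, as in 7.98% of all genes. The opposite order held in none of the 10 and in 8.08% of all genes. In limma's fit over all genes 2 of the 10, Camp and Chil3, passed an adjusted p of 0.05 as lower, against 0.055% of all genes (0.11% in either direction). At an adjusted p under 0.10 there were 4, against 0.115%. At an unadjusted p of 0.05 none was higher, against 5.81% of all genes, and 7 were lower, against 4.24%. Because the genes were listed with the results known, these counts describe the list and are no independent evidence about it. In bulk RNA, fewer cells of a type and less RNA per cell cannot be told apart.

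**Figure D1:**
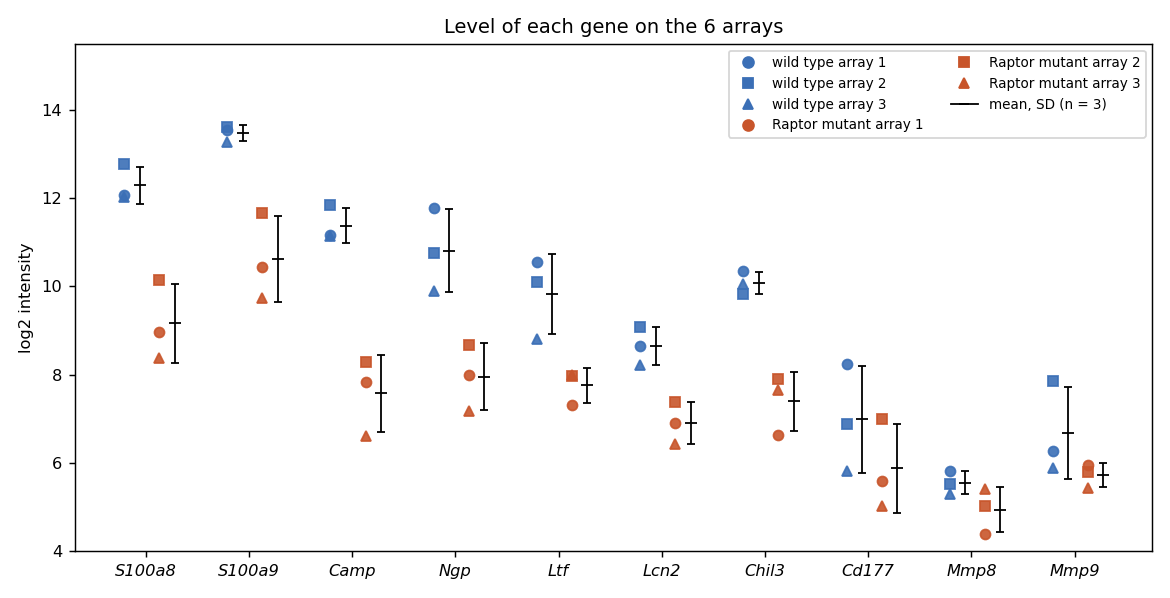
Log2 intensity of the 10 genes on each of the 3 wild type (blue) and 3 Raptor mutant (orange) arrays, with the group mean and SD (n = 3) beside the points. The groups are separate in S100a8, S100a9, Camp, Ngp, Ltf, Lcn2 and Chil3 and overlap in Cd177, Mmp8 and Mmp9.

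The 2 subunits of calprotectin differed alike between the groups. S100a8 had log2 intensities of 12.08, 12.77 and 12.02 on wild type arrays 1, 2 and 3, and 8.96, 10.14 and 8.38 on mutant arrays 1, 2 and 3. The highest mutant value lay 1.88 below the lowest wild type value. The mutant mean was 8.75-fold lower, a log2 change of -3.13 ± 0.43 (SE), which did not pass over all genes (adjusted p = 0.073, limma). S100a9 had 13.55, 13.63 and 13.28 on the wild type arrays and 10.45, 11.67 and 9.74 on mutant arrays. Its wild type arrays lay within 0.35 of each other, while its mutant arrays spanned 1.92. The mutant mean was 7.29-fold lower, a log2 change of -2.87 ± 0.43 (SE; adjusted p = 0.099, limma). Both genes had the same order of mutant arrays, with array 2 highest and array 3 lowest. Without mutant array 2 both passed, with log2 changes of -3.62 and -3.39 (adjusted p of 0.026 and 0.019, limma). Leaving out any other array, neither passed, with adjusted p of up to 0.226 for S100a8 and 0.240 for S100a9 (limma). When Y-linked signal entered the fit the changes were -2.90 and -2.91 (adjusted p = 0.524 for both, limma). Of 18 alternative fits, S100a8 passed in 3 and S100a9 in 1. Against wild type array 1 alone the mutant means were 7.56-fold lower for S100a8 and 7.65-fold lower for S100a9.

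Camp, the cathelicidin antimicrobial peptide of secondary granules, had the lowest log2 change of the 10 genes over all 6 arrays, but not against wild type array 1 alone, where Ngp was lower (-3.82 against -3.59), nor when Y-linked signal entered the fit (-3.72 against -3.59). It stood at 11.17, 11.84 and 11.14 on the wild type arrays and at 7.83, 8.29 and 6.60 on mutant arrays. The gap between the groups, 2.86 log2 units from the lowest wild type to the highest mutant value, was larger than the range within either group, 0.70 in wild type and 1.68 in mutant arrays. Its mean fell 14.01-fold, a log2 change of -3.81 ± 0.42 (SE; adjusted p = 0.030, limma). Only 2 of the 18193 genes had a lower log2 change. Against wild type array 1 alone Camp was 12.1-fold lower. The call was lost without wild type array 1, 2 or 3 or mutant array 1, with log2 changes of -3.92, -3.58, -3.93 and -3.94 and adjusted p of 0.075, 0.080, 0.117 and 0.0999 (limma). Over all 18 alternative fits the change lay between -4.16 and -3.32 and passed in 9. When Y-linked signal entered the fit it was -3.59 (adjusted p = 0.467, limma).

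Ngp, a neutrophil granule protein related to the cathelicidins, was separate between the groups but variable within both. Its log2 intensities were 11.78, 10.76 and 9.90 on the wild type arrays and 8.001, 8.68 and 7.18 on mutant arrays. Wild type array 1 was high and array 3 low, a span of 1.87, so that the comparison depends on the wild type array taken. The mutant mean was 7.25-fold lower, a log2 change of -2.86 ± 0.52 (SE; adjusted p = 0.143, limma), and 14.1-fold lower than wild type array 1.

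Ltf, lactoferrin, the iron-binding protein of secondary granules, had the same pattern in wild type arrays. It stood at 10.56, 10.10 and 8.80 there and at 7.31, 7.97 and 7.996 on mutant arrays. Mutant array 3, low in S100a8, S100a9, Camp and Ngp, was the highest mutant array here. The mutant mean was 4.18-fold lower, a log2 change of -2.06 ± 0.44 (SE; adjusted p = 0.166, limma), and 6.97-fold lower than wild type array 1.

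Lcn2, lipocalin 2, which binds iron-loaded bacterial siderophores, differed less, with a range of 0.85 in wild type and 0.95 in mutant arrays. It stood at 8.65, 9.08 and 8.23 on the wild type arrays and at 6.90, 7.38 and 6.43 on mutant arrays. No mutant array came within 0.84 of the lowest wild type array. The mutant mean was 3.36-fold lower, a log2 change of -1.75 ± 0.30 (SE; adjusted p = 0.131, limma), and 3.35-fold lower than wild type array 1.

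Chil3, the chitinase-like protein Ym1 of neutrophil precursors and macrophages, fell 6.42-fold. It stood at 10.34, 9.83 and 10.05 on the wild type arrays and at 6.63, 7.90 and 7.64 on mutant arrays. The wild type arrays were close together, and mutant array 1 rather than array 3 was the lowest. The log2 change was -2.68 ± 0.33 (SE; adjusted p = 0.043, limma), and the mutant mean was 7.72-fold lower than wild type array 1. The call was lost without wild type array 1, 2 or 3 or mutant array 3, with log2 changes of -2.55, -2.80, -2.69 and -2.81 and adjusted p of 0.093, 0.086, 0.147 and 0.155 (limma). When Y-linked signal entered the fit it was -2.90 (adjusted p = 0.410, limma), and it passed in 7 of 18 alternative fits. A further probe set names Chil3 and Chil4 together, and its reads cannot be divided between them. It stood at 9.05, 8.75 and 8.22 on the wild type arrays and 6.02, 7.42 and 7.33 on mutant arrays, a log2 difference of -1.75. The probe set of Chil4 alone stood at 5.31 to 5.64 over the 6 arrays, near the lower quartile of the arrays.

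**Figure D2:**
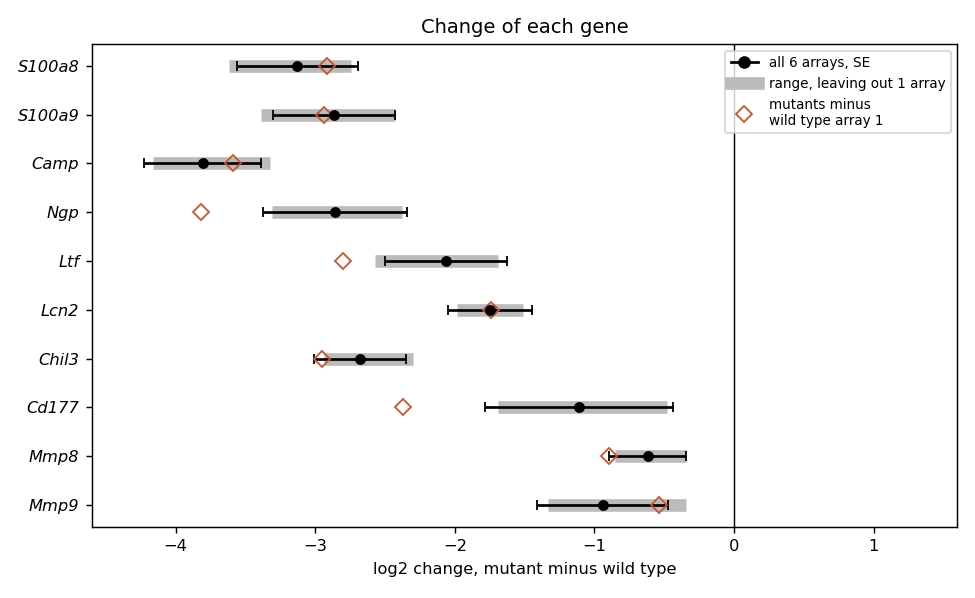
Log2 change (mutant minus wild type) of the 10 genes over all 6 arrays with its SE (black), the range when each array is left out in turn (grey) and the mutant mean minus wild type array 1 (open diamonds). Against wild type array 1 alone, Ngp, Ltf and Cd177 move furthest from 0, to -3.82, -2.80 and -2.37. Chil3, Mmp8 and S100a9 also lie further from 0 there, at -2.95, -0.89 and -2.93, and Camp, S100a8, Mmp9 and Lcn2 lie nearer.

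The other 3 genes were dimmer and their groups overlapped. Cd177, a surface protein held in secondary granules that pairs with proteinase 3, stood at 8.24, 6.89 and 5.81 on the wild type arrays and at 5.595, 6.998 and 5.02 on mutant arrays. Mutant array 2 lay above wild type arrays 2 and 3, and the log2 change of -1.11 ± 0.67 (SE; adjusted p = 0.613, limma) was smaller than the SD of 1.22 among wild type arrays. With 1 array left out, the log2 change ran from -1.69 (without wild type array 3) to -0.48 (without wild type array 1). Mmp8, neutrophil collagenase, stood at 5.82, 5.53 and 5.29 on the wild type arrays and at 4.38, 5.01 and 5.39 on mutant arrays. These values lie about the arrays' lower quartile, where no detection calls were used, so its log2 change of -0.62 ± 0.28 (SE; adjusted p = 0.514, limma) may not measure the size of any difference. Mmp9, gelatinase B of the last granules to form, stood at 6.27, 7.86 and 5.88 on the wild type arrays and at 5.96, 5.80 and 5.43 on mutant arrays. Wild type array 2 alone was high. The log2 change was -0.94 ± 0.47 (SE; adjusted p = 0.557, limma). With 1 array left out, it ran from -1.335 (without wild type array 3) to -0.35 (without wild type array 2). The dimmer Mmp9 probe set had 6.07, 6.69 and 6.17 on wild type and 5.76, 5.91 and 5.66 on mutant arrays, with no overlap and a log2 difference of -0.53. Against wild type array 1 alone the log2 differences were -2.37 for Cd177, -0.89 for Mmp8 and -0.54 for Mmp9 (brighter probe set).

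Within the groups the genes did not vary as 1 block. Wild type array 3 was the lowest wild type array for 9 of the 10 genes, all but Chil3, whereas it was the lowest for 26.9% of all genes. The highest wild type array was array 1 for Ngp, Ltf, Mmp8, Cd177 and Chil3 and array 2 for Camp, Lcn2, S100a8, S100a9 and Mmp9. The genes raised on array 1 include Ngp, Ltf and Cd177, which stood 0.96, 0.74 and 1.26 above their wild type means there and 0.91, 1.02 and 1.17 below them on array 3. S100a9, in contrast, deviated by at most 0.21 from its mean on any wild type array. Among mutants, array 2 was highest for 7 genes, against 37% of all genes, and array 3 lowest for 7, against 30.7%. Ltf, Mmp8 and Chil3 were lowest on mutant array 1 instead. These genes share an array, so their shared high or low values there are not independent, and the order was not tested.

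**Figure D3:**
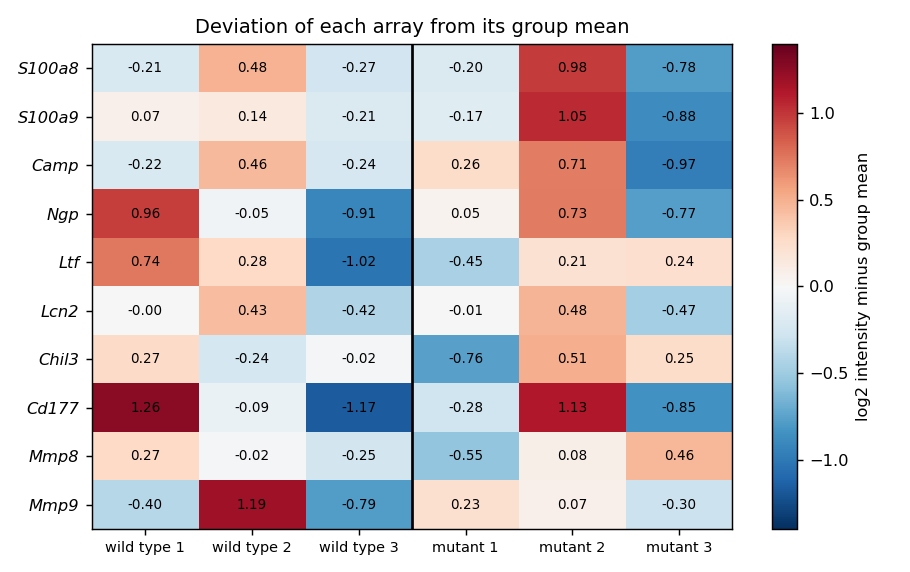
Deviation of each array from the mean of its own group for the 10 genes (log2 intensity, red above and blue below the group mean, value printed in each cell). Wild type array 1 is high in Ngp, Ltf and Cd177, and mutant array 2 is high and array 3 low in S100a8, S100a9, Camp, Ngp and Cd177.

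Genes of the earlier, primary granules had changes on both sides of 0. Of 11 measured, 0 were called in limma's fit, and the median log2 change was 0.19. At an unadjusted p of 0.05 (limma) 2 were lower and 1 higher, against 4.24% and 5.81% of all genes. Mpo, myeloperoxidase, stood at 12.99 ± 0.14 in wild type and 13.15 ± 0.09 in mutant arrays (SD, n = 3 each). Ctsg, cathepsin G, had a log2 change of 0.39 ± 0.18 and Elane, neutrophil elastase, one of -0.59 ± 0.25 (SE; adjusted p of 0.524 and 0.492, limma). The largest of this list were Cst7, an inhibitor of cysteine proteases, at 1.26 ± 0.30, and Lyz2, lysozyme, at -0.65 ± 0.19 (SE; adjusted p of 0.221 and 0.310, limma). The summed intensity of the list was 32742 to 35078 on wild type and 33142 to 37501 on mutant arrays, which overlap. That of the 10 late genes was 19277 to 27983 on wild type and 2094 to 5975 on mutant arrays, which do not. Sums are set mostly by the brightest probe sets.

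Other genes of maturing neutrophils had a median between that of the 10 genes and that of all genes. Of 27 measured, 0 were called, and 21 had a log2 change below 0, as 59.6% of all genes did. At an unadjusted p of 0.05 (limma) 7 were lower and 1 higher, against 4.24% and 5.81% of all genes. The median was -0.40. Groups were separate with the mutant lower in 10 of the 27 and with the mutant higher in 1, against 7.98% and 8.08% of all genes. The smallest p belonged to Pglyrp1, a peptidoglycan recognition protein of granules, with a log2 change of -0.89 ± 0.16 (SE; adjusted p = 0.140, limma). It stood at 8.75 ± 0.18 in wild type and 7.87 ± 0.04 in mutant arrays (SD, n = 3 each). Ifitm6, an interferon-induced transmembrane protein, had a log2 change of -1.22 ± 0.28, Anxa1, annexin A1, one of -0.60 ± 0.16 and Hp, haptoglobin, one of -0.52 ± 0.18 (SE; adjusted p of 0.207, 0.268 and 0.416, limma). Pygl and Serpinb1a, bright in this list, had -0.50 and -0.15. Cxcr2, a chemokine receptor of mature neutrophils, stood at 6.62 ± 0.04 in wild type and 6.16 ± 0.32 in mutant arrays and Itgb2l, an integrin chain, at 6.68 ± 0.29 and 6.32 ± 0.08 (SD, n = 3 each). Itgam, the CD11b chain that the lineage gate removes, stood at 6.50, 5.58 and 6.49 on wild type and 5.22, 5.35 and 5.29 on mutant arrays, a log2 change of -0.90 ± 0.26 (SE; adjusted p = 0.310, limma). Whether mature neutrophils passed the gate was not tested.

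The transcription factors that drive granulocyte maturation also had changes on both sides of 0. Of 11 measured with the G-CSF receptor, 0 were called, and the median log2 change was 0.16. At an unadjusted p of 0.05 (limma) 1 was lower and 2 were higher, against 4.24% and 5.81% of all genes. Groups were separate with the mutant higher in 3 (Cebpa, Gfi1 and Runx1) and with the mutant lower in 0, against 8.08% and 7.98%. Cebpa, needed for the first granulocytic step, stood at 9.32, 9.23 and 9.34 on wild type and 10.38, 9.86 and 10.23 on mutant arrays, a log2 change of 0.86 ± 0.18 (SE; adjusted p = 0.165, limma). Gfi1, a repressor required for neutrophils, had one of 0.76 ± 0.27 and Cebpb one of -0.49 ± 0.20 (SE; adjusted p of 0.429 and 0.486, limma). Spi1, which encodes PU.1, had one of -0.29, and Runx1 and Stat3, the brightest of the list, 0.16 and 0.25. Csf3r, the G-CSF receptor, stood at 9.19 ± 0.31 in wild type and 9.27 ± 0.16 in mutant arrays (SD, n = 3 each). Cebpe was not analysed here.

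**Figure D4:**
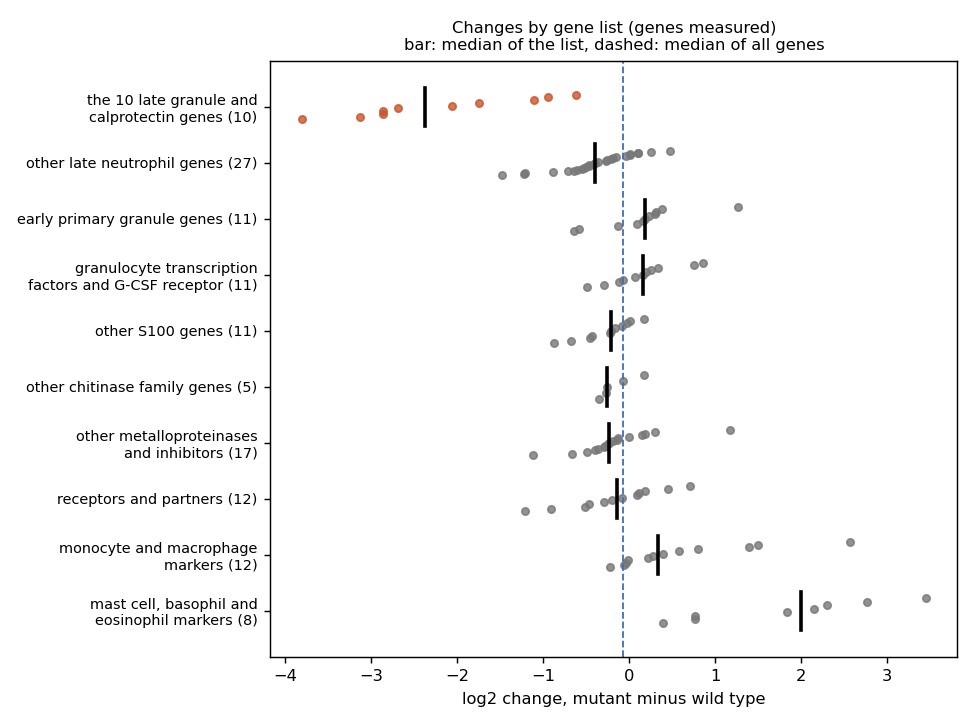
Log2 change (mutant minus wild type) of every measured gene of 10 lists, one point per gene, with the median of each list (bar) and of all genes (dashed line, -0.07). The 10 late granule and calprotectin genes have a median of -2.37, the early primary granule genes one of 0.19 and the mast cell, basophil and eosinophil markers one of 1.996.

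Relatives of the 10 proteins had medians nearer 0. Groups were separate with the mutant lower in 3 of 11 other S100 genes and 2 of 5 other chitinase family genes. The same held in 2 of 17 other metalloproteinases and inhibitors and 2 of 12 receptors and partners, against 7.98% of all genes. Separate groups with the mutant higher were seen in 1 of the metalloproteinases and inhibitors and 0 of each other list, against 8.08%. Among 11 other S100 genes 0 were called and 2 were lower and 0 higher at an unadjusted p of 0.05 (limma), with a median log2 change of -0.21. Over all genes 4.24% were lower and 5.81% higher at that threshold, which also serves the counts of the next lists. S100a6 had a log2 change of -0.88 ± 0.20 and S100a10 one of -0.46 ± 0.19 (SE; adjusted p of 0.193 and 0.486, limma), and S100a4 one of -0.68 with overlapping groups. Among 5 other chitinase family genes 0 were called and 0 had an unadjusted p under 0.05 (limma), with changes of -0.36 to 0.18. The 2 with separate groups, Chia1 (5.22 to 5.92) and Chil4 (5.31 to 5.64), stood not far above the arrays' lower quartiles of 5.15 to 5.37. No detection calls were used there. Among 17 other metalloproteinases and their inhibitors 0 were called and 1 was lower and 1 higher at an unadjusted p of 0.05 (limma). The lower was Mmp2, gelatinase A, at -1.12 ± 0.31, and the higher Timp3, a tissue inhibitor of metalloproteinases, at 1.17 ± 0.47 (SE; adjusted p of 0.280 and 0.474, limma). Of 12 receptors and partners of the encoded proteins 0 were called, 2 were lower and 0 higher at an unadjusted p of 0.05 (limma), and the median was -0.14. Tlr4, a receptor for calprotectin, had a log2 change of -0.08, and Prtn3, the proteinase 3 that CD177 displays, one of 0.19. Fpr2, a receptor for the cathelicidin peptide, stood at 7.21, 6.17 and 4.77 on wild type and 4.64, 4.98 and 4.91 on mutant arrays, and so was high on wild type array 1 like Ngp, Ltf and Cd177.

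Markers of other cell types were read on the same arrays, and their part in the difference was not tested. Mast cell, basophil and eosinophil markers lay higher in mutant arrays, with all 8 above 0, a median of 1.996 and a summed intensity of 2107 to 2755 on wild type and 5147 to 8198 on mutant arrays. Of these 0 were called and 5 were higher and 0 lower at an unadjusted p of 0.05 (limma), where 5.81% of all genes were higher. Mutant array 2, the highest mutant array for 7 of the 10 late genes, had the lowest of these mutant sums. The other arrays did not keep this opposite order. Wild type array 2 had the highest wild type sum both of the late genes (27983) and of these markers (2755). Mutant array 3, with the lowest sum of the late genes (2094), stood at 6517 here, below the 8198 of mutant array 1. Monocyte and macrophage markers, cells that also carry calprotectin, had a median of 0.34 over 12 genes, 0 called, 3 higher and 0 lower at an unadjusted p of 0.05 (limma). Their summed intensity was 1042 to 1548 on wild type and 1935 to 2725 on mutant arrays. Groups were separate with the mutant higher in 4 of the 12, against 8.08% of all genes, and with the mutant lower in 0. C1qb, a complement component made by macrophages, had the highest log2 change of the list, 2.57 ± 0.41, and Cd68, a lysosomal protein of macrophages, had 1.498 ± 0.21 (SE; adjusted p of 0.099 and 0.078, limma). Csf1r, the receptor for M-CSF, had 1.39 ± 0.55 (SE; adjusted p = 0.469, limma), with separate groups. Ccr2 had 0.80 ± 0.36 (SE; adjusted p = 0.524, limma) with overlapping groups, and F13a1 stood at 7.74 ± 0.79 in wild type and 7.70 ± 0.06 in mutant arrays (SD, n = 3 each). Median changes were -0.52 over 8 megakaryocyte, 0.20 over 7 erythroid, -0.25 over 7 B cell and -0.16 over 6 T and NK cell markers. Of these 28 entries 0 were called, and at an unadjusted p of 0.05 (limma) 3 of the 8 megakaryocyte markers were lower, against 4.24% of all genes. Among them Pf4 had separate groups, at 11.47 ± 0.10 in wild type and 9.74 ± 0.67 in mutant arrays (SD, n = 3 each). Its log2 change was -1.73 ± 0.315 (SE; adjusted p = 0.143, limma). Stem and progenitor markers had a median of -0.55 over 11 genes, with 0 called. At an unadjusted p of 0.05 (limma) 5 were lower and 0 higher, against 4.24% and 5.81% of all genes. Among the lower was Mecom, a stem cell transcription factor, at -0.996 ± 0.16 (SE; adjusted p = 0.117, limma).

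**Figure D5:**
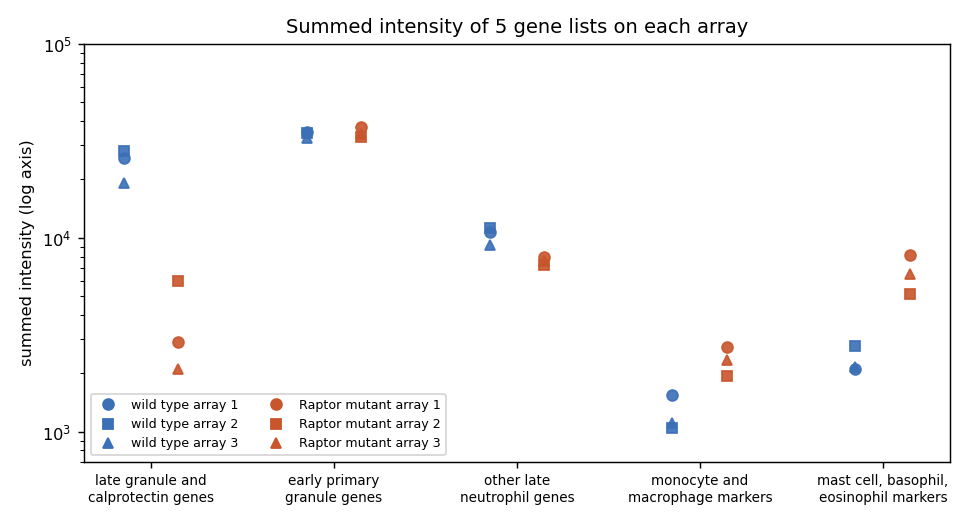
Summed linear intensity of 5 gene lists on each of the 6 arrays (log axis). The late granule and calprotectin genes lie lower on all 3 mutant arrays, the early granule genes overlap between the groups, and the mast cell, basophil and eosinophil markers lie higher on all 3 mutant arrays.

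Genes outside the list with the most similar course over the 6 arrays were found by Pearson correlation with the mean log2 intensity of the 10 genes, among 732 genes that spanned at least 2 log2 units. The mean was 9.85, 9.83 and 9.04 on wild type and 7.20, 7.98 and 6.98 on mutant arrays. The 8 closest genes were Sox6, Lipo3, Csgalnact1, Clec1a, Card6, Inhba, Scml4 and Robo4, with r of 0.93 to 0.97 over 6 arrays that fall into the 2 groups compared. Sox6, a transcription factor gene, followed the mean most closely (r = 0.97) and stood at 9.55, 9.15 and 9.14 on wild type and 7.11, 7.32 and 6.41 on mutant arrays. Csgalnact1, an enzyme of chondroitin sulfate synthesis, also had its lowest wild type value on array 3 and its highest mutant value on array 2.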

How the data were processed

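RNA of 3 wild type and 3 Raptor mutant samples was measured on single-colour arrays after amplification and biotin labelling, per the labels' protocols. The deposited table holds linear intensities, 1 for each probe set on each array. RMA is the tool named in the submitters' processing notes, without version or settings. Values ran from 7.60 to 33795, and log2 was taken here. No pair of arrays shared more than 99 identical values. Of 45101 probe sets, 64 were controls, 9160 named no gene, 932 named several and 34945 named 1 gene in the platform annotation. Entrez identifiers of 34741 matched RefSeq, and 0 symbols needed an update. The brightest probe set per gene gave 18193 genes. The mutant minus wild type difference was fitted by lmFit and eBayes (limma 3.58.1, R 4.3.3) without covariates, two-sided, with Benjamini-Hochberg adjustment over all genes. A gene was called at an adjusted p under 0.05. Errors are SE of limma or SD of 3 arrays. The code was tested on simulated data. The number of arrays limits precision.

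The 10 genes and all lists were chosen with earlier results of these data known. Named genes were the 10, and of each list those called, up to 4 with the smallest p and up to 3 of the brightest, besides the 8 closest by correlation. Cxcr2, Itgb2l, Csf3r, Kit, Tlr4, Kdm5d and Rptor lie outside this rule, and they and the promoter motifs were picked with values already seen. Alternatives were other normalizations, probe set rules, filters and variance models, the replicate number as a block, Y-linked signal as a covariate, and leaving out arrays. Same-numbered arrays had correlated deviations across genes of 0.18, -0.03 and 0.06, and differently numbered arrays of -0.16 to 0.09. The arrays numbered 1 thus lay above that range and those numbered 2 and 3 within it. The numbers were not taken to pair the arrays.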

Additional observations from a re-analysis of the deposited data

How the results depend on the processing

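All 10 genes had a log2 change below 0 in each of the 18 alternative fits that held them, and the median over the list ran from -2.86 to -2.06. Several of these fits cannot change the direction. The replicate block, the filters, trend and robust fitting and testing all probe sets singly leave each gene's log2 change as reported. The mean of probe sets alters only Mmp9 among the 10. For the 7 genes with separate groups, leaving out or weighting arrays cannot reverse the sign either. The shared direction over these fits is therefore no further evidence. The number of the 10 called as lower (2 in the reported fit) moved more. It was 1 after quantile normalization again, 4 at an adjusted p under 0.10, and 0 after cyclic loess again, with all probe sets tested singly, with array weights, with a Y-linked covariate and without the arrays that carry Y-linked signal. Leaving out 1 array gave 0 to 4. With the replicate number as a block it was 2, Camp and S100a8. Over all genes, 10 were called lower and 10 higher in the reported fit. These counts were 4 and 6 with the replicate block, 20 and 20 with trend and robust fitting, 2 and 6 with array weights, and 21 and 28 at an adjusted p under 0.10. Testing all probe sets singly gave 4 lower, the mean of probe sets 16 higher and keeping the brighter 9096 genes 6 higher. Both were 0 with the Y covariate (limma, 1149 genes at an unadjusted p under 0.05) and without the Y arrays (1729). Leaving out 1 array gave 1 to 7 lower and 4 to 25 higher. The cause of these moves was not tested. No detection calls were used, which limits Mmp8, Mmp9 and Cd177 and the dim genes of the other lists.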
